A study of Homo sapiens with 4 samples.

Results

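The IFIT genes encode interferon-induced proteins with tetratricopeptide repeats. The platform annotation of the bead array gave 7 probes to the 4 genes IFIT1, IFIT2, IFIT3 and IFIT5, out of 43893 probes with values in the deposited normalized table, which name 19778 genes. There were 2 probes for IFIT1, 1 for IFIT2, 3 for IFIT3 and 1 for IFIT5. The family was selected on its higher signal in the depleted cells in earlier results of these same arrays, so the difference between the groups is given here as a description and no test is read for it. RNA came from DU154, as the labels spell it, a cell line of human prostate cancer, with 2 arrays labelled wild type and 2 labelled mH2A1.2_KO. Per the design text the second group lacks or has less mH2A1.2, which is made by alternative splicing of macroH2A1, a histone H2A variant. The means of depletion, and whether the cells are 1 clone or a pool, were not given in the sources used here. Replicates are not described as separate cultures, so a p-value here reflects only how far these arrays spread, which may be technical.

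IFIT transcripts are nearly silent in most resting cells and are among those most strongly induced by type I and type III interferons, or directly by the factor IRF3 after a cell senses viral nucleic acid. Interferon receptors activate the kinases JAK1 and TYK2, and a transcription factor complex that contains IRF9 then binds interferon-stimulated response elements in the promoters of its target genes. IFIT1 binds the capped end of RNA that lacks ribose methylation and blocks its translation, IFIT3 and IFIT2 assemble with it, and IFIT5 binds RNA with a triphosphate end on its own.

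The promoters are shown because the response element is the known route of induction of these genes. Each is 300 bases of RefSeq sequence (GRCh38.p14, forward strand, from 250 bases before a start site to 50 after it), and positions are counted from the start site. Capitals mark matches to the core of the element, searched on either strand as 2 copies of GAAA, or of TTTC on the other strand, separated by 2 bases of any kind. Promoters of IFIT1, of both IFIT3 start sites, of IFIT5 and of the neighbouring family member IFIT1B are printed, and IFIT2 is named only.

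IFIT1, chr10:89392373-89392672: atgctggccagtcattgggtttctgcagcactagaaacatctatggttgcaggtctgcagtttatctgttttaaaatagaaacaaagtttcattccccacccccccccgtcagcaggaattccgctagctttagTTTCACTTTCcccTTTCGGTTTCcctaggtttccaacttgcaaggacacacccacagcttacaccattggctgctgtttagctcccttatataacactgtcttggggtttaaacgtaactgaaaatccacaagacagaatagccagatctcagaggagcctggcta
IFIT3, upstream start, chr10:89327747-89328046: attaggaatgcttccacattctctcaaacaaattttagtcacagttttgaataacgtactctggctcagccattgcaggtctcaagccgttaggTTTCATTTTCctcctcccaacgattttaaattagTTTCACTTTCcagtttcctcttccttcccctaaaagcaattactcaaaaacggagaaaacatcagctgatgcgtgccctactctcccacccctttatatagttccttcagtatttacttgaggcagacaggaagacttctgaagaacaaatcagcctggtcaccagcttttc
IFIT3, downstream start, chr10:89332279-89332578: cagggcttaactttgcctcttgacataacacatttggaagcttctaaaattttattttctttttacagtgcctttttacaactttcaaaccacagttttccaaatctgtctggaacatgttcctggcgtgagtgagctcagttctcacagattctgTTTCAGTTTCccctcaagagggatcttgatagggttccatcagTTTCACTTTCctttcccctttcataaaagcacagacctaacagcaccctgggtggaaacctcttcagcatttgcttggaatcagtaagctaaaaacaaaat
IFIT5, chr10:89414318-89414617: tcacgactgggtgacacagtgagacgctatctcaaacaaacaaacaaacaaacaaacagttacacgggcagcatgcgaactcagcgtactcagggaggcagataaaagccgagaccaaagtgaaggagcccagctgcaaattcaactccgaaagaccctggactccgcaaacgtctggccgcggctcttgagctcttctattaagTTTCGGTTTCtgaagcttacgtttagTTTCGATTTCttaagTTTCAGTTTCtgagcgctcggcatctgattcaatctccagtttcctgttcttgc
IFIT1B, chr10:89377806-89378105: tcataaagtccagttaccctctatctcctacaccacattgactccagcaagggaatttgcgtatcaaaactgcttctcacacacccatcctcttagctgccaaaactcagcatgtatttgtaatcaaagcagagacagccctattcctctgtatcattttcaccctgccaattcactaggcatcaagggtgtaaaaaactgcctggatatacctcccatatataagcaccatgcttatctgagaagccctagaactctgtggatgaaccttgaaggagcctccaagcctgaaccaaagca

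IFIT1 held 2 matches, at -116 and -103. The same 10 letters, TTTCACTTTC, stood in IFIT1 at -116 and in IFIT3 at -122 of the upstream and -51 of the downstream start. Each IFIT3 promoter held 1 more match, at -156 and at -94. IFIT5 held 3 matches, at -45, -19 and -4, and IFIT1B held 0. Of all 35116 promoters in the RefSeq table, 3.57% held at least 1 match, 0.259% at least 2 and 0.0370% at least 3. A match is a run of letters and not a measured binding site.

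Across the arrays, between 16727 and 18377 of 47230 probes were above background, meaning a detection p-value under 0.01. Median raw signals ran from 139.8 to 142.4 and correlations of log2 values between arrays from 0.972 to 0.987 over 16950 detected probes. The mH2A1.2_KO arrays correlated at 0.987 with each other and the wild type arrays at 0.974. Same-numbered arrays of the 2 groups correlated at 0.981 and 0.986, above the wild type pair, and the other pairs at 0.972 and 0.974. The number of arrays limits the precision. The raw and the normalized table disagree on which array is which. Each array of the raw table followed 1 column of the normalized table (correlations of centred log2 values from 0.9976 to 0.9983 over 7303 bright probes), and wild type replicate 2 and mH2A1.2_KO replicate 1 had exchanged names between the tables. Groups here follow the normalized table. Both tables name their samples, the normalized table by its columns and the raw table by its header line. Which naming is right was not settled. The raw header's grouping, and the pair placed alike in both tables, wild type replicate 1 with mH2A1.2_KO replicate 2, are given beside the results.

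MACROH2A1, the targeted gene, had 3 detected probes. The annotation places the brightest on a different transcript from the other 2 and does not name the splice form of either. On the log2 scale the brightest read 13.02 and 12.91 on the wild type arrays, then 11.97 and 11.83 on the mH2A1.2_KO arrays. The next read 10.25 and 10.46, then 9.41 and 9.26, and the last went the other way, with 8.86 and 8.41, then 9.49 and 9.03. Under the raw header's grouping the differences of these probes, in the same order, were -0.12, 0.03 and -0.45, against -1.07, -1.02 and 0.62 here and -1.19, -0.99 and 0.17 between the arrays placed alike. All 6 epithelial markers on the list (EPCAM, CDH1 and 4 keratins) were above background on all arrays. The luminal prostate genes KLK3 and KLK2 were above background on none and TMPRSS2 on 1.

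IFIT1 measured higher in mH2A1.2_KO through its bright probe, ILMN_1707695. The log2 signal was 9.10 and 8.11 for wild type against 9.81 and 10.25 for mH2A1.2_KO (raw signals 615 and 311 against 931 and 1351). Both mH2A1.2_KO arrays stood above both wild type arrays, with a gap of 0.71 between the nearest ones. The difference of the means was 1.43 ± 0.34 (SE, 2 arrays per group), or 2.69-fold. In bulk RNA, more cells with a transcript and more transcript per cell cannot be told apart. The wild type arrays differed from each other by 0.98, more than the gap between the groups, and only 2.24% of detected probes had a larger gap between those replicates. Leaving out wild type replicate 2 gave a difference of 0.93 and leaving out wild type replicate 1 gave 1.92. The other IFIT1 probe, ILMN_1699331, was not above background on any array (6.414, 6.410, 6.397 and 6.387) and gives no fold.

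IFIT2 had 1 probe, ILMN_1739428, above background on all 4 arrays. It measured 7.49 and 7.35 for wild type against 8.57 and 9.07 for mH2A1.2_KO, so the groups did not overlap and the nearest arrays were 1.08 apart. The difference was 1.40 ± 0.21 or 2.64-fold. The wild type replicates lay within 0.14 of each other and the mH2A1.2_KO replicates within 0.51, and each of the 4 differences between an mH2A1.2_KO and a wild type array, from 1.08 to 1.72, was larger than these gaps.

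IFIT3 measured higher on all 3 of its probes, by unequal amounts. ILMN_1701789 gave 6.72 and 6.39 in wild type, above background on 1 of these arrays only, and 7.73 and 8.498 in mH2A1.2_KO. Its difference was 1.56 ± 0.28 or 2.94-fold, with the wild type mean resting in part on a signal at background. ILMN_1664543, annotated to the same transcript, gave 6.35 and 6.42, not above background on either wild type array, and 7.06 and 7.33 in mH2A1.2_KO. With wild type at background, 1.76-fold is a lower bound, here equal to the measured ratio. The bound takes no account of the spread between arrays, and the log2 difference was 0.68 without mH2A1.2_KO replicate 2. For such a bound the dim group counts, on each array, at the higher of its own signal and the lowest signal of any detected probe. ILMN_2239754, annotated to another IFIT3 transcript, was above background on every array. It gave 6.71 and 6.80 against 7.39 and 7.46. The groups differed by 0.67 ± 0.16 or 1.59-fold with replicates within 0.09 and 0.08 of each other. None of the 3 overlapped between groups.

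IFIT5 did not separate the groups. Its probe, ILMN_1696654, gave 6.83 and 6.63 for wild type against 6.74 and 6.89 for mH2A1.2_KO, was above background on 3 of the 4 arrays and differed by 0.08 ± 0.17. Wild type replicate 1 lay above mH2A1.2_KO replicate 1. The gene carries 3 matches to the response element in the promoter printed above, more than IFIT1 or either IFIT3 start site. IFIT1B, with 1 probe, stayed at background throughout and gives no fold.

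**Figure D1:**
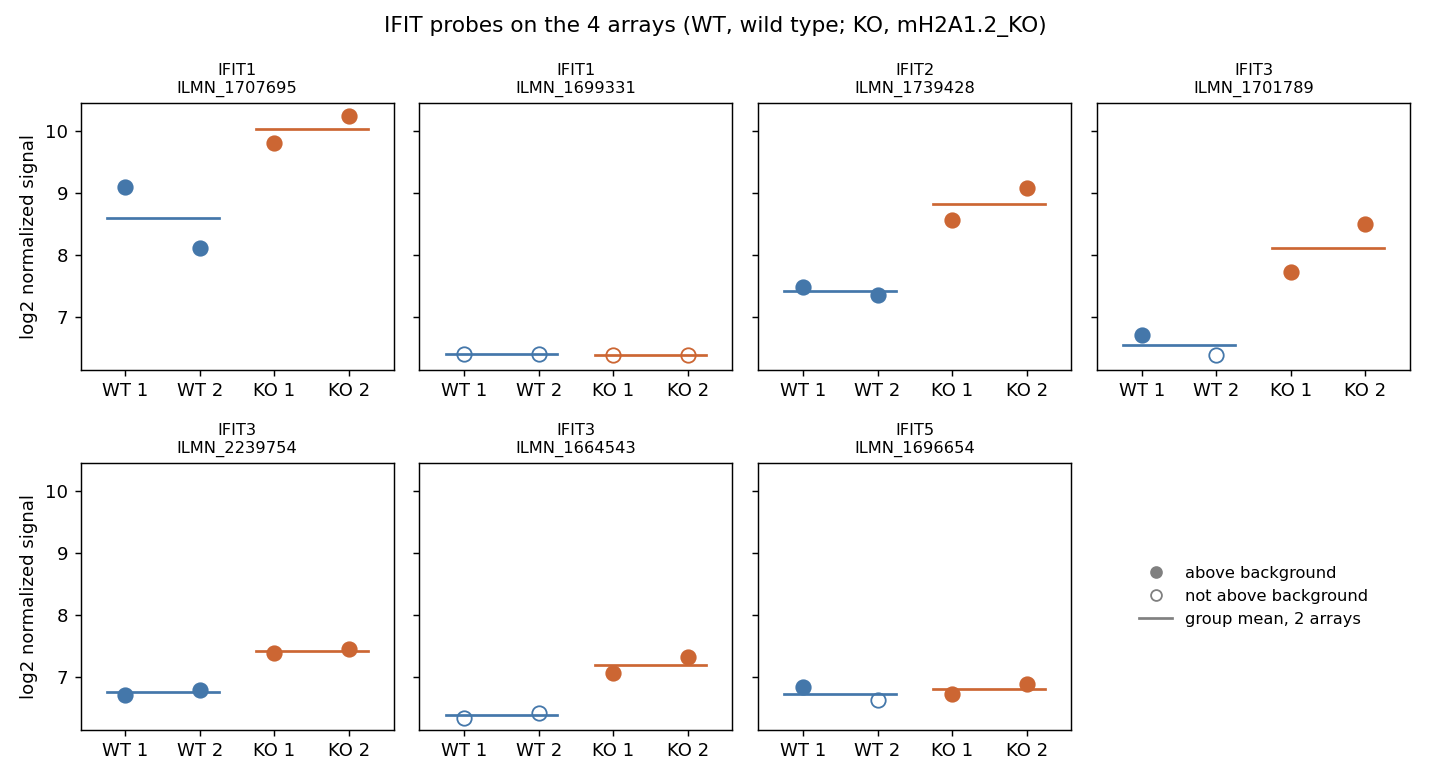
Log2 normalized signal (vertical axis) of the 7 IFIT probes on the 2 wild type and 2 mH2A1.2_KO arrays, with filled points above background, open points not above background, and lines at the group means. The mH2A1.2_KO points lie above the wild type points for IFIT2, the 3 IFIT3 probes and the bright IFIT1 probe, while IFIT5 overlaps and the other IFIT1 probe stays near 6.4 throughout.

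Of the 7 probes, 6 were detected on at least 2 arrays and entered the fit over all detected probes. Of these 6, 5 had arrays that did not overlap and were higher in mH2A1.2_KO, where 17.1% of all detected probes did so, 18.5% were lower without overlap and 35.7% did not overlap in either direction. At least a 2-fold difference was measured by 3 of them, against 0.549% of detected probes, and all 6 were higher by any amount, against 47.9%. ILMN_1664543, among the 5, passed the detection filter only through the mH2A1.2_KO arrays. Since the family was picked for this difference, these shares carry no weight of their own. limma called 0% of the 16950 detected probes at an adjusted p under 0.05 (lowest adjusted p 0.193), and 1282 had an unadjusted p under 0.05. Ranked by difference, the probes of IFIT3 (ILMN_1701789), IFIT1 and IFIT2 stood at 12, 18 and 20 of 16950, IFIT3 ILMN_2239754 at 305 and IFIT5 at 5669. ILMN_1664543, whose difference is a bound, is given no rank.

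**Figure D2:**
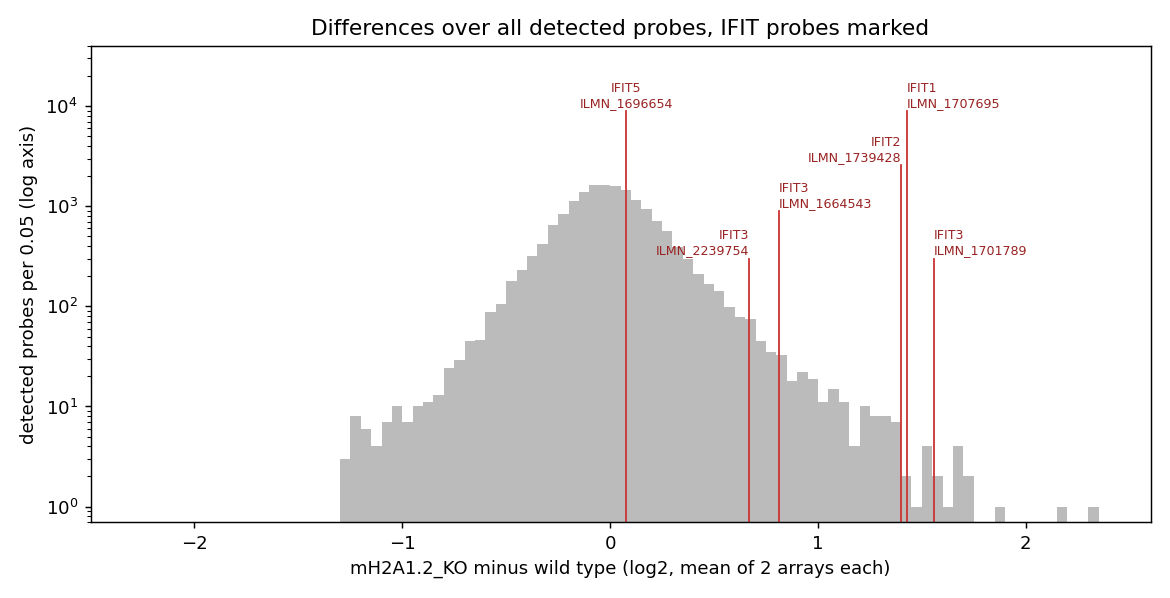
Number of detected probes (log axis) by their difference between groups, in bins of 0.05 on the log2 scale, with the 6 tested IFIT probes marked by red lines. IFIT1, IFIT2 and 1 IFIT3 probe lie in the sparse right tail beyond 1, the other IFIT3 probes at 0.67 and 0.81 (the latter a lower bound), and IFIT5 at 0.08 in the bulk.

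The IFIT probes also differed between replicates. All 6 tested probes were highest on mH2A1.2_KO replicate 2, and 4 were lowest on wild type replicate 2. Between the mH2A1.2_KO arrays, replicate 2 exceeded replicate 1 by 0.77 for IFIT3 ILMN_1701789, by 0.51 for IFIT2 and by 0.44 for IFIT1, where 1.298%, 6.94% and 10.5% of detected probes had a larger gap in size. The other IFIT3 probes differed there by 0.27 and 0.08. Between the wild type arrays only IFIT1 stood out, and the gap was 0.33 for IFIT3 ILMN_1701789 and 0.14 for IFIT2. Replicate gaps over all detected probes had an SD of 0.40 in wild type and 0.28 in mH2A1.2_KO.

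**Figure D3:**
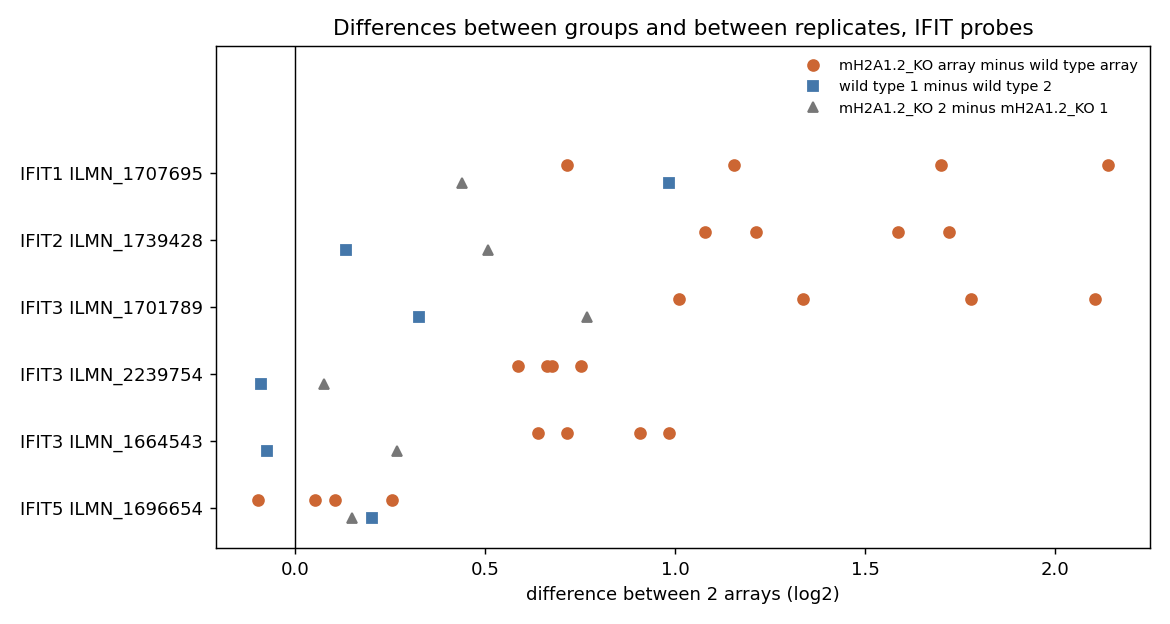
Differences between single arrays on the log2 scale (horizontal axis) for the 6 tested IFIT probes, with circles for each mH2A1.2_KO array minus each wild type array, squares for wild type replicate 1 minus replicate 2 and triangles for mH2A1.2_KO replicate 2 minus replicate 1. For IFIT2 and the IFIT3 probes every circle lies to the right of both replicate gaps, for IFIT1 the wild type gap of 0.98 exceeds the smallest circle at 0.71, and for IFIT5 they mix.

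The array naming in doubt mattered for the family. Under the raw header's grouping the difference was -0.27 for IFIT1, 0.19 for IFIT2, 0.22, 0.08 and 0.17 for IFIT3 (ILMN_1701789, ILMN_2239754 and ILMN_1664543) and -0.03 for IFIT5, and all 6 probes overlapped between groups. Between the arrays placed alike by both tables it was 1.15 for IFIT1, 1.59 for IFIT2, 1.78, 0.75 and 0.98 for the IFIT3 probes and 0.05 for IFIT5. These have 1 array a side and no test, and ILMN_1664543 was at background on the wild type array. The family was selected on these arrays too, and mH2A1.2_KO replicate 2 was the highest array for all 6 probes.

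Markers of other cell types were mostly at background. Of the 6 leukocyte markers, CD14 and HLA-DRA were above background on all 4 arrays and CD79A on 2, and PTPRC, LYZ and CD3E were on none. The summed linear signal of the list was 712 to 1016 in wild type and 865 to 1005 in mH2A1.2_KO, ranges that overlap. The 3 endothelial markers were above background on no array, and of 5 fibroblast markers 0 to 2 were, depending on the array. Of the 6 epithelial markers 5 were higher in mH2A1.2_KO without overlap, where 17.1% of all features were, and KRT18 overlapped, with another probe at -0.12. Their summed linear signal was 7172 and 7684 for wild type against 16116 and 14590 for mH2A1.2_KO, and their part in the IFIT difference was not tested. Under the raw header's grouping KRT8 differed by -0.26 and CDH1 by -0.42, and the summed signals overlapped between groups.

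The mean profile of the tested IFIT probes over the 4 arrays was closest to that of ISG15. Likeness was the root mean square distance between log2 profiles centred on their own mean, set against the mean profile of the 6 tested IFIT probes. That mean joins unlike members and need not describe any 1 of them. It ran from -0.62 to 0.68, the IFIT1 probe from -1.21 to 0.93 and the IFIT5 probe from -0.14 to 0.11. The distance was 0.083 for ISG15, a ubiquitin-like protein induced by interferon, 0.10 for PSMB8, a subunit of the immunoproteasome, and 0.10 for ALDH3B1, an aldehyde dehydrogenase. CLDN11, ZNF185, ELFN2, CFLAR, CDH3, MX1 and CCM2 followed at 0.12 to 0.18. Of these 10 genes, ISG15 and MX1, a dynamin-like antiviral GTPase, are in the interferon lists used below. With 4 arrays, any gene with a similar difference between groups comes close, and the list is a description.

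Most of the tested interferon-induced effectors outside the family measured higher in mH2A1.2_KO. The lists here hold the interferon pathway by role and were drawn up with earlier results of these data known. A gene was represented by its brightest detected probe, and the 13786 genes and unnamed probes so formed are the background. Of 36 effectors 23 were tested, and 22 of them were higher and 1 lower, with a median log2 difference of 0.45 against -0.01 over all features. Arrays did not overlap for 15 higher and 0 lower members, where this held for 17.1% (higher), 18.7% (lower) and 35.8% (either) of all features, and 48% of all features were higher by any amount. None passed limma's test over all features (lowest adjusted p 0.344, 11 with an unadjusted p under 0.05), as 0% of features did. DDX60, counted as higher without overlap, was above background on the mH2A1.2_KO arrays only, so it passed the detection filter through that group. With no detection filter the median over 35 effectors was 0.25.

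OASL, an oligoadenylate synthetase-like protein that aids RNA sensing, gave 7.65 and 7.06 for wild type against 8.43 and 9.02 for mH2A1.2_KO, a difference of 1.37 ± 0.28. Its other detected probe differed by 0.52. ISG15 gave 10.66 and 10.28 against 11.43 and 11.76, a difference of 1.12 ± 0.21. MX1 gave 9.26 and 9.17 against 9.64 and 10.23, a difference of 0.72 ± 0.23. In each of these genes mH2A1.2_KO replicate 2 was the highest array and wild type replicate 2 the lowest, the order seen for IFIT1, IFIT2 and IFIT3 ILMN_1701789. OASL was among the 0.58% of features at least 2-fold higher, as was ISG15. Between the arrays placed alike, 21 of the 23 effectors were higher (median 0.49), against 51.1% of all features. Under the raw header's grouping 14 of the 23 were higher with a median of 0.05, as were 7166 of all 13786 features. ISG15 differed there by -0.03 and OASL by 0.0002.

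The ligands were mostly below background. Of 10 interferon genes, IFNE alone was detected on at least 2 arrays, with 6.62 and 6.56 for wild type against 6.77 and 7.06 for mH2A1.2_KO (0.33 ± 0.17, adjusted p = 0.769 in limma's fit). No probe of IFNA1, IFNA2, IFNB1, IFNK, IFNW1, IFNL1, IFNL2, IFNL3 or IFNG was above background on any array. This sets no limit on secreted protein, which was not measured.

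Receptors and signal transducers showed no common direction. Of 10 tested, 4 were higher and 6 lower with a median of -0.08, and arrays did not overlap for 1 higher and 3 lower, a share close to the 35.8% of all features. With the mean of a gene's detected probes the median was 0.020. The receptor chains IFNAR1 and IFNAR2 differed by -0.10 ± 0.22 and -0.07 ± 0.16, with another IFNAR2 probe at 0.36. The kinases JAK1 and TYK2 differed by 0.20 ± 0.19 and -0.24 ± 0.18. IFNLR1, a chain of the type III receptor, differed by 0.21 ± 0.18. IRF9, the DNA-binding subunit of the interferon-activated complex, gave 8.64 and 8.49 for wild type against 8.78 and 9.19 for mH2A1.2_KO, a difference of 0.42 ± 0.20 (adjusted p = 0.714), and was the higher member without overlap.

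Sensors of viral nucleic acid and their adaptors were higher for 9 of 11 tested members, against 48% of all features, with a median of 0.29. Without overlap 8 were higher and 1 lower, against 17.1% and 18.7% of all features. AIM2, among these 8, differed by 0.11 ± 0.16. It was above background on the mH2A1.2_KO arrays only, so it passed the detection filter through that group. With no detection filter the median was 0.28 over 14 members. STING1, the adaptor of cytosolic DNA sensing, differed by 0.89 ± 0.31, though its wild type arrays were 0.81 apart and the difference was 0.23 between the arrays placed alike and -0.66 under the raw header's grouping. IFIH1, the RNA sensor MDA5, gave 6.999 and 6.84 against 7.62 and 7.54, a difference of 0.66 ± 0.16, which was -0.12 under the raw header's grouping. TRIM25, a ubiquitin ligase of RIG-I signalling, differed by 0.46 ± 0.17. The lowest adjusted p in the list was 0.431. Under the raw header's grouping its median was 0.10. There 2 of the 11 members were higher without overlap, as were 3418 of all 13786 features.

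The other IRF factors and the feedback inhibitors lay near the background. Of 6 tested IRF genes 3 were higher, with a median of 0.002. IRF8, a factor of myeloid cells, differed by -0.46 ± 0.20, IRF1 by 0.38 ± 0.17 and IRF7, which amplifies interferon production, by 0.19 ± 0.25. Of 6 feedback genes 5 were higher, against 48% of all features, with a median of 0.04. USP18, which removes ISG15 from proteins and restrains the type I receptor, is itself induced by interferon, and it measured 8.001 and 7.62 for wild type against 7.67 and 7.78 for mH2A1.2_KO, a difference of -0.09 ± 0.19. PTPN2, a phosphatase of JAK kinases, differed by 0.22 ± 0.19, with another probe at -0.21. SOCS1 and SOCS3, inhibitors of JAK kinases, differed by 0.03 ± 0.16 and 0.11 ± 0.16.

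Enzymes of the mRNA cap, which IFIT1 reads, and translation factors bound by IFIT proteins showed no common direction. Of 9 tested, 5 were higher and 4 lower, with a median of 0.03. PCIF1, which methylates the cap-adjacent adenosine, differed by 0.33 ± 0.16. EIF3E, a subunit of the initiation factor that IFIT proteins bind, differed by -0.15 ± 0.16, and EIF3C, another subunit, by 0.11 ± 0.18. Over all 66 tested pathway genes 49 were higher, where 48% of all features were, with a median of 0.19. Between the arrays placed alike 47 were higher, against 51.1% of all features, with a median of 0.20. Under the raw header's grouping 34 of the 66 were higher, as were 7166 of all 13786 features, with a median of 0.020.

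**Figure D4:**
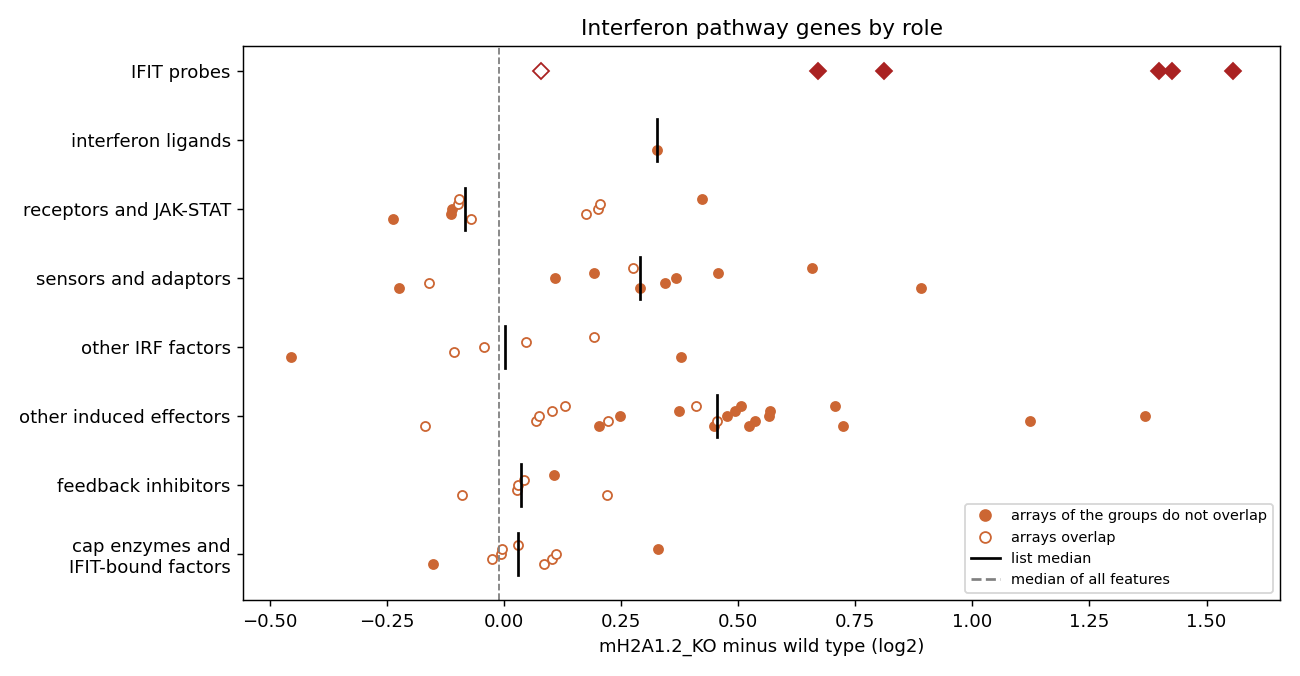
Difference between groups on the log2 scale (horizontal axis) for each tested interferon pathway gene, by role, with filled points where arrays did not overlap, black bars at list medians and a dashed line at the median of all features (-0.01). Diamonds are the 6 tested IFIT probes, 5 of which lie at 0.67 or above, and the effectors have the highest median, 0.45, of the lists with more than 1 tested gene.

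Genes that share the promoter match differed little as a group. Outside the family, 329 of 8656 tested genes with a promoter in the table held at least 1 match (3.80%). Their median difference was 0.041, against -0.0081 for all 8656, and arrays did not overlap with higher signal in mH2A1.2_KO for 26.7% against 18.3%. The 19 genes that also belong to a pathway list had a median of 0.49 and the 310 others 0.024. With at least 2 matches there were 28 genes, with a median of 0.13. Of these, 20 were higher, against 48.6% of all 8656. Leaving out any 1 of the 4 arrays moved the median of the 329 by more than 1.5 times, to 0.019 and 0.071 without wild type replicates 1 and 2 and to 0.0053 and 0.0028 without mH2A1.2_KO replicates 1 and 2. IFIT5, with 3 matches, differed by 0.08 on a dim probe (6.63 to 6.89, above background on 3 of the 4 arrays). IFIT1, with 2 matches, differed by 1.43. A link between the number of matches and the difference was not tested.

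The IFIT genes lie side by side on chromosome 10, in the order IFIT2, IFIT3, IFIT1B, IFIT1 and IFIT5 in RefSeq. Of the 5 protein-coding genes on each side, 6 of 10 were tested, and 2 were higher and 4 lower, from -0.91 to 0.09. LIPA, a lysosomal acid lipase next to IFIT2, gave 11.44 and 10.35 for wild type against 10.97 and 10.64 for mH2A1.2_KO (-0.09 ± 0.36). SLC16A12, a transporter next to IFIT5, differed by -0.07 ± 0.23. PANK1, which starts coenzyme A synthesis, differed by -0.11 ± 0.18, the mitotic kinesin KIF20B by 0.09 ± 0.16 and ACTA2, a smooth muscle actin, by 0.002 ± 0.49. STAMBPL1, a deubiquitinase and the farthest tested gene on its side, was the 1 of 6 tested without overlap, where 35.7% of detected probes did not overlap, with 9.79 and 10.16 against 8.77 and 9.36 (-0.91 ± 0.25, adjusted p = 0.463 in limma's fit). That difference was -0.43 between the arrays placed alike and 0.48 under the raw header's grouping. CH25H, which is also induced by interferon, was above background on 1 wild type array. By their brightest probes, RPP30 was on 1 wild type array and FAS and HTR7 on none.

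**Figure D5:**
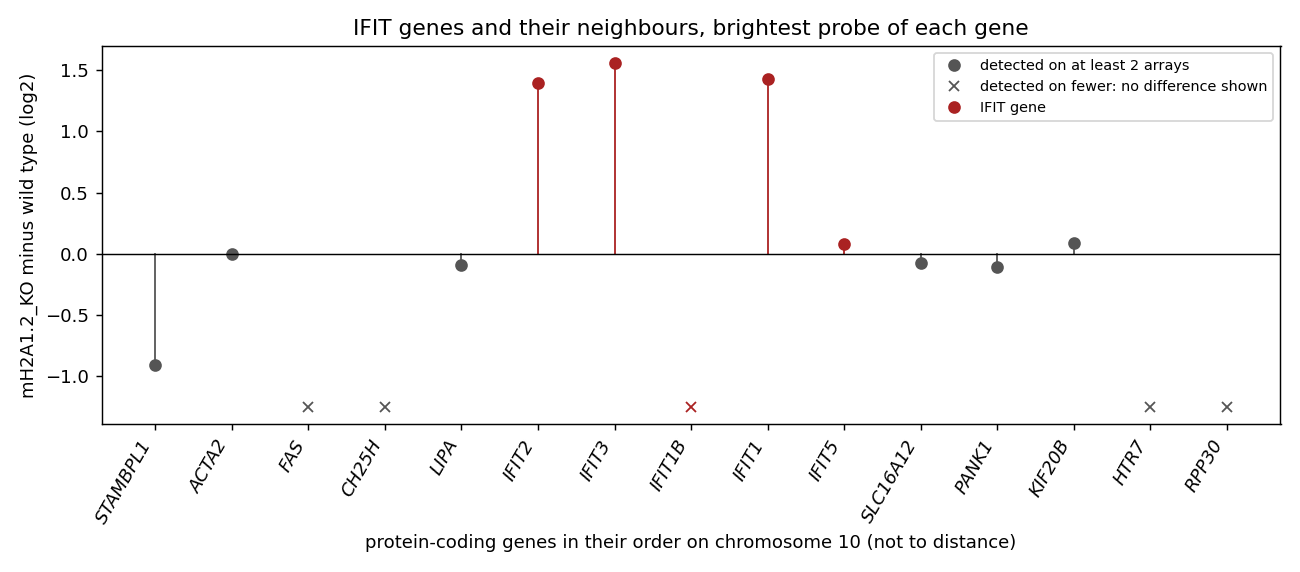
Difference between groups on the log2 scale (vertical axis) for the IFIT genes (red) and the 5 protein-coding genes on each side (grey) in their order on chromosome 10, each by its brightest detected probe, with crosses at the foot for genes detected on fewer than 2 arrays, whose difference is not drawn. IFIT2, IFIT3 and IFIT1 stand at 1.40, 1.56 and 1.43, and the tested neighbours lie from -0.91 to 0.09. IFIT3 is drawn by ILMN_1701789, the brightest of its probes over all 4 arrays. In wild type that probe was dimmer (mean 6.56) than ILMN_2239754 (6.75). The other IFIT3 probes, not drawn, differed by 0.67 and 0.81 (the latter a lower bound).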

How the data were processed

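Total RNA of 2 wild type and 2 mH2A1.2_KO samples was hybridised as biotinylated cRNA to single-colour Illumina bead arrays, per the labels' protocols. The submitters' processing notes name GenomeStudio. Raw intensity on a linear scale, with no visible background subtraction, was deposited for 47230 probes. A detection p-value for each of them on each array was deposited beside it. The authors also deposited normalized values, which lie on a log2 scale; their normalization was not given in the sources used here, and 64 of 43957 rows are blank. Probes absent from the normalized table (3273) were not analysed in the main comparison.

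The normalized values were quantile-normalized across the 4 arrays. The 16950 probes detected on 2 or more arrays (detection p-value under 0.01) were fitted with limma 3.58.1 (R 4.3.3; lmFit, eBayes, two-sided; residual degrees of freedom 2, prior 4.26). P-values were adjusted by Benjamini-Hochberg over all these probes, and the threshold was 0.05. SE values are the moderated ones. For gene lists the brightest detected probe stood for a gene (13786 features, 10673 named). Symbols came from the platform annotation (29471 probes with values, 1 symbol each; 14422 unnamed here), updated through gene IDs. The same fit was tested on simulated data in which known probes had been changed.

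The members, the gene lists and the alternatives were chosen with earlier results of these data known. The genes named are all IFIT probes, IFIT1B and 5 neighbours a side, receptor and feedback genes, MACROH2A1, the 10 nearest profiles, and the 3 largest differences of each list. Interferon ligands, cell type markers, and DDX60 and AIM2, detected on mH2A1.2_KO arrays only, are named as well. Detection calls per array follow the match of each raw array to the normalized column it tracks. Alternatives covered the normalization, the detection filter, each array left out, a replicate block and the raw header's grouping. neqc with matched arrays, the comparison of the 2 arrays placed alike and the count of genes with at least 2 promoter matches were chosen after seeing the data.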

Additional observations from a re-analysis of the deposited data

How the results depend on the processing

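The detection filters and the replicate block cannot change a probe's difference, so they say nothing on its direction. Under every other alternative the difference kept its direction for IFIT2 and the 3 IFIT3 probes. For IFIT1 it did so except under the raw header's grouping, where it was -0.27, or -0.34 with neqc on the raw signals named by that header. The cause of the disagreement between the tables was not tested. The median over the 6 tested IFIT probes was 1.11. It ran from 0.89 to 1.296 when 1 array was left out (lowest without wild type replicate 2), and was 1.40 over the 3 probes detected on all 4 arrays, where fewer probes enter, 1.61 with neqc on matched arrays, 0.13 under the raw header's grouping and 0.17 with neqc named by that header. IFIT5 stayed between -0.38 and 0.18.

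No probe or gene was called in the fit reported, and the counts moved with the alternative; the cause was not tested. With no detection filter 5 probes and 2 genes were called. Leaving out 1 array gave 0 to 211 probes and 0 to 161 genes, the counts above 0 coming without wild type replicate 1 (69 and 57) or 2 (211 and 161). A replicate block gave 647 probes and 425 genes, and with these balanced groups it cannot change the IFIT differences. The labels do not say that replicate numbers pair the arrays. Same-numbered arrays deviated together (correlation 0.57 over 16950 probes), and with 2 pairs this does not settle a pairing.

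The median of the pathway genes (0.19) was 0.15 to 0.20 with 1 array left out, 0.11 with no detection filter, 0.14 with the mean of a gene's probes, 0.27 with neqc on matched arrays, 0.020 under the raw header's grouping and -0.0086 with neqc named by that header. The median of the genes with the promoter match (0.041) was 0.0028 to 0.071 with 1 array left out, 0.013 with no detection filter, 0.017 under the raw header's grouping and 0.018 with neqc named by it, 0.065 between the arrays placed alike and 0.13 with at least 2 matches. The lists with medians near 0 (receptors, other IRF factors, feedback genes and cap enzymes) changed sign under some alternatives. Signal over background limits IFIT3 ILMN_1664543, at background on both wild type arrays, and ILMN_1701789 and IFIT5, at background on 1.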
